A study of Mus musculus with 12 samples.

Results

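The interferon response genes of the mouse hippocampus were examined on 7 probe sets, taken by name from a set of 7 genes: Irf1, Irf9, Irf7, Stat2, Ifit1, Ifit3 and Isg15. A probe set, the group of short probes that an Affymetrix array uses to measure a transcript, was kept where the platform annotation gave it exactly 1 gene symbol and that symbol was in the set. This gave 7 of 12422 probe sets and 6 of 8251 genes, with Irf7 measured by 2 probe sets. Stat2 had no probe set under that rule and its level was not analysed here. The rule works by name and uses no level.

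The series measured total RNA of the hippocampus on 12 MG-U74A arrays in a design of genotype by treatment, with 3 arrays in each of 4 groups. The groups were control mice given saline, control mice given kainate, mutant mice given saline and mutant mice given kainate. By the title of the series, CREB and CREM, transcription factors that respond to cyclic AMP and calcium, were lost in the mutants; neither the manner of disruption nor the cell type concerned is given in the labels used here. Kainate, a glutamate receptor agonist that provokes seizures, was injected intraperitoneally at 20 mg/kg, and the tissue was taken 1 h later. All animals were littermates of both sexes, 5 to 6 weeks old, caged singly and handled for 5 days. The RNA of 3 animals was pooled for every array, and p-values therefore measure the spread between pools and not between animals. Whole hippocampus was assayed, so a change in the number of cells of a type and a change in RNA per cell cannot be told apart. The question asked of these genes was whether the higher glial transcripts of the mutants were accompanied by an interferon response.

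Interferons are cytokines that cells release on sensing viral or misplaced nucleic acid. Type I interferon acts through its receptor and the JAK kinases to bring STAT2 and IRF9 into the complex ISGF3, which binds the interferon-stimulated response element (ISRE) in front of genes such as Ifit1, Ifit3, Isg15 and Irf7. Interferon gamma acts at the gamma-activated site (GAS), for which Irf1 is a classical target, and in brain the responses are prominent in microglia and astrocytes during infection and degeneration.

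The DNA in front of the members was searched for the letters of these elements, and is printed here for the members whose windows held a match. RefSeq promoter windows of build GRCm38.p6, from 250 bases before to 50 bases after an annotated start, were searched on both strands for GAAA, any 2 bases and GAAA (ISRE) and for TTC, any 3 bases and GAA (GAS). Capitals mark the matched bases, and the strand given is the gene's, along which the sequence runs 5′ to 3′. Isg15 lies at chr4:156200863-156200908 on the minus strand, Stat2 at chr10:128270264-128270297, Ifit3 at chr19:34583361-34583428, Ifit1 at chr19:34640773-34640825 and Irf1 at chr11:53769912-53769944, these 4 on the plus strand, and the coordinates are those of the stretch printed.
Isg15: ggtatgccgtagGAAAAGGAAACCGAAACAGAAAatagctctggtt
Stat2: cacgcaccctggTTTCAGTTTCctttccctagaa
Ifit3: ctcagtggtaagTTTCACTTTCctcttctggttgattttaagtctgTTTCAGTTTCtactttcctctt
Ifit1: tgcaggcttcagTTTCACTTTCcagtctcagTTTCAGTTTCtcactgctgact
Irf1: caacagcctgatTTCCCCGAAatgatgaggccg

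Each stretch lies upstream of the start that its window was taken from; for Ifit3 that is a start inside the annotated gene, which begins at base 34583119 of the chromosome, so the stretch lies within the gene's span. Isg15 held 3 overlapping ISRE matches in 1 run, Ifit3 and Ifit1 held 2 each, separated by a short spacer, and Stat2 held 1, in each case of ISRE. In Ifit3, Ifit1 and Stat2 the match lay on the opposite strand, so that it reads TTTC, 2 bases and TTTC on the gene's strand. Irf1 held 1 GAS match in 1 of its 2 windows. The windows of Irf7 and Irf9 held neither run of letters. ISRE was found in 3.44% of all 32851 windows and GAS in 8.3%, and a match is a description of the letters, not a bound site.

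No member passed the threshold between control and mutant hippocampus or after kainate, and Irf1 came nearest to it. Averaged over both treatments, the genotype differences of the 7 member probe sets lay between -0.08 and 0.17 on the log2 scale, and 0 of 7 passed the threshold of an adjusted p under 0.05 (limma, Benjamini-Hochberg over all probe sets). In that comparison 0.612% of all probe sets were called, (76 probe sets, or 124 with the replicate number as a block, where the members called were again 0), so a count of 0 among 7 lies near the background and says little by itself; the sizes and their intervals carry more. The intervals bound the signal of a probe set, which for a dim one may not bound the transcript. The probe sets of Irf7, Isg15, Ifit1 and Ifit3 lay at or below the 46.3 percentile of mean level. Genes of infiltrating leukocytes lay between the 4.40 and 52.1 percentiles. The highest upper bound of any member's 95% interval was 0.42, a 1.34-fold higher level in mutants, for Irf9. By contrast 9 of 16 measured microglial genes rose in mutants, the smallest of these differences being 0.70 with a lower bound of 0.48 for Csf1r, the receptor that microglia need to survive. In this averaged comparison the member intervals ended below those of the 9 called microglial genes, a subset that had passed the same test. Within treatments they overlapped for Csf1r, which was not called there (adjusted p 0.214 under saline and 0.0827 under kainate in limma). The highest member bounds were 0.51 under saline and 0.55 under kainate, and the lower bounds of Csf1r were 0.35 and 0.42. Among microglial genes called within each treatment, again picked by the same test, Ctss had the lowest lower bounds, at 0.62 and 0.59. The microglial genes that did not pass included Itgam at -0.04, Fcer1g at -0.01 and Fcgr3 at -0.07.

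Among the regulators, Irf1, a transcription factor induced by interferon gamma and by inflammatory cytokines, was the brightest member. Its log2 levels were 4.99, 5.20 and 5.21 on the control saline arrays, 5.25, 5.24 and 5.40 on the control kainate arrays, 5.39, 5.42 and 5.49 on the mutant saline arrays and 5.28, 5.26 and 5.42 on the mutant kainate arrays. The control saline arrays were the lowest 3 of the 12, and each array of the other 3 groups lay above them. Irf1 stood at 5.14 ± 0.12 (SD, n = 3) in control saline and at 5.43 ± 0.06 (SD, n = 3) in mutant saline, a log2 difference of 0.30 (SE 0.09), with an unadjusted p of 0.00606 and an adjusted p of 0.793 in limma. All 3 mutant saline arrays lay above all 3 control saline arrays, as they did for 3.85% of all probe sets.

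Under kainate the Irf1 levels of both genotypes overlapped, and the difference was 0.02 (SE 0.09). Averaged over treatments it was 0.16 (SE 0.06), with an unadjusted p of 0.0249 and an adjusted p of 0.611 in limma. Of 42 member tests over the 6 comparisons, 3 had an unadjusted p under 0.05 and all 3 were of Irf1, in comparisons that share arrays. Of all 12422 probe sets, 743 were under 0.05 in limma for the averaged genotype difference, 319 under saline and 616 under kainate. For kainate the numbers were 915 in controls and 780 in mutants, and for the interaction 107. Irf1 was past the threshold under 1 alternative, limma with array weights, at 0.17 averaged (adjusted p 0.0262) and 0.24 under saline (adjusted p 0.00751), and under the other 19 it was not.

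Irf9, the DNA-binding subunit of ISGF3, read 4.75, 4.74 and 4.17 in control saline, 4.54, 4.90 and 4.80 in control kainate, 4.82, 4.67 and 4.62 in mutant saline, and 4.83, 5.13 and 4.85 in mutant kainate (log2). Replicate 3 of control saline was the lowest array by a wide margin, and the 2 saline groups overlapped, as did the 2 kainate groups. Its averaged genotype difference of 0.17 (SE 0.11) had an adjusted p of 0.630 in limma. This was the largest averaged difference of any member and smaller than the SD of 0.33 among the control saline arrays.

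Irf7, the factor that amplifies type I interferon production once induced, was read near the floor of the arrays, with its probe sets at the 11.3 and 7.02 percentiles of mean level over all probe sets. The brighter, whose suffix _f marks probes shared within a gene family, read 2.24, 2.15 and 2.11 in control saline, 2.16, 2.15 and 2.55 in control kainate, 2.25, 2.13 and 2.10 in mutant saline and 2.15, 2.12 and 2.16 in mutant kainate. The dimmer read 1.92, 1.83 and 1.80, then 1.84, 1.82 and 2.18, then 1.89, 1.79 and 1.78, and last 1.83, 1.77 and 1.82 in the same order of groups. In both, replicate 3 of control kainate was the highest of the 12 arrays, and all groups overlapped. The averaged genotype differences were -0.08 (SE 0.08) and -0.08 (SE 0.07), both with an adjusted p of 0.630 in limma, and at this level a small rise might not be seen.

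The antiviral effectors were read at low level and were not called either. Ifit1, which binds foreign RNA that lacks the host's cap methylation, read 3.32, 3.18 and 3.13 in control saline, 3.21, 3.19 and 3.60 in control kainate, 3.41, 3.15 and 3.13 in mutant saline and 3.17, 3.13 and 3.20 in mutant kainate. Its groups overlapped, with the same control kainate array on top. The averaged genotype difference of Ifit1 was -0.07 (SE 0.09), with a 95% interval from -0.26 to 0.11.

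Ifit3, of the same antiviral family as Ifit1, read 4.22, 3.96 and 3.82 in control saline, 3.92, 3.69 and 4.20 in control kainate, 4.14, 3.997 and 4.40 in mutant saline, and 3.97, 3.90 and 3.95 in mutant kainate. The range within 3 of the 4 groups was wider than any gap between group means, and the mutant kainate arrays lay closest together. Ifit3 differed by 0.09 (SE 0.11) between genotypes on average and by 0.18 (SE 0.15) under saline. Mouse Ifit3 has a close paralog, Ifit3b, and whether the probes tell them apart was not tested.

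Isg15, a ubiquitin-like protein that is among the most strongly induced interferon targets, read 2.99, 2.91 and 2.94 in control saline, 2.89, 2.91 and 3.09 in control kainate, 2.97, 2.92 and 2.93 in mutant saline, and 2.87, 3.09 and 2.91 in mutant kainate. Its 12 values were nearly level and all groups overlapped. The averaged genotype difference of Isg15 was -0.01, with a 95% interval from -0.14 to 0.12 (adjusted p 0.951 in limma), and 0.07 after quantile normalisation. At this low level the probe set may not bound a change of the transcript. Its sign turned under 7 of 19 alternatives, among them both other scalings (quantile normalisation and centring of the arrays), and carries no direction.

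**Figure D1:**
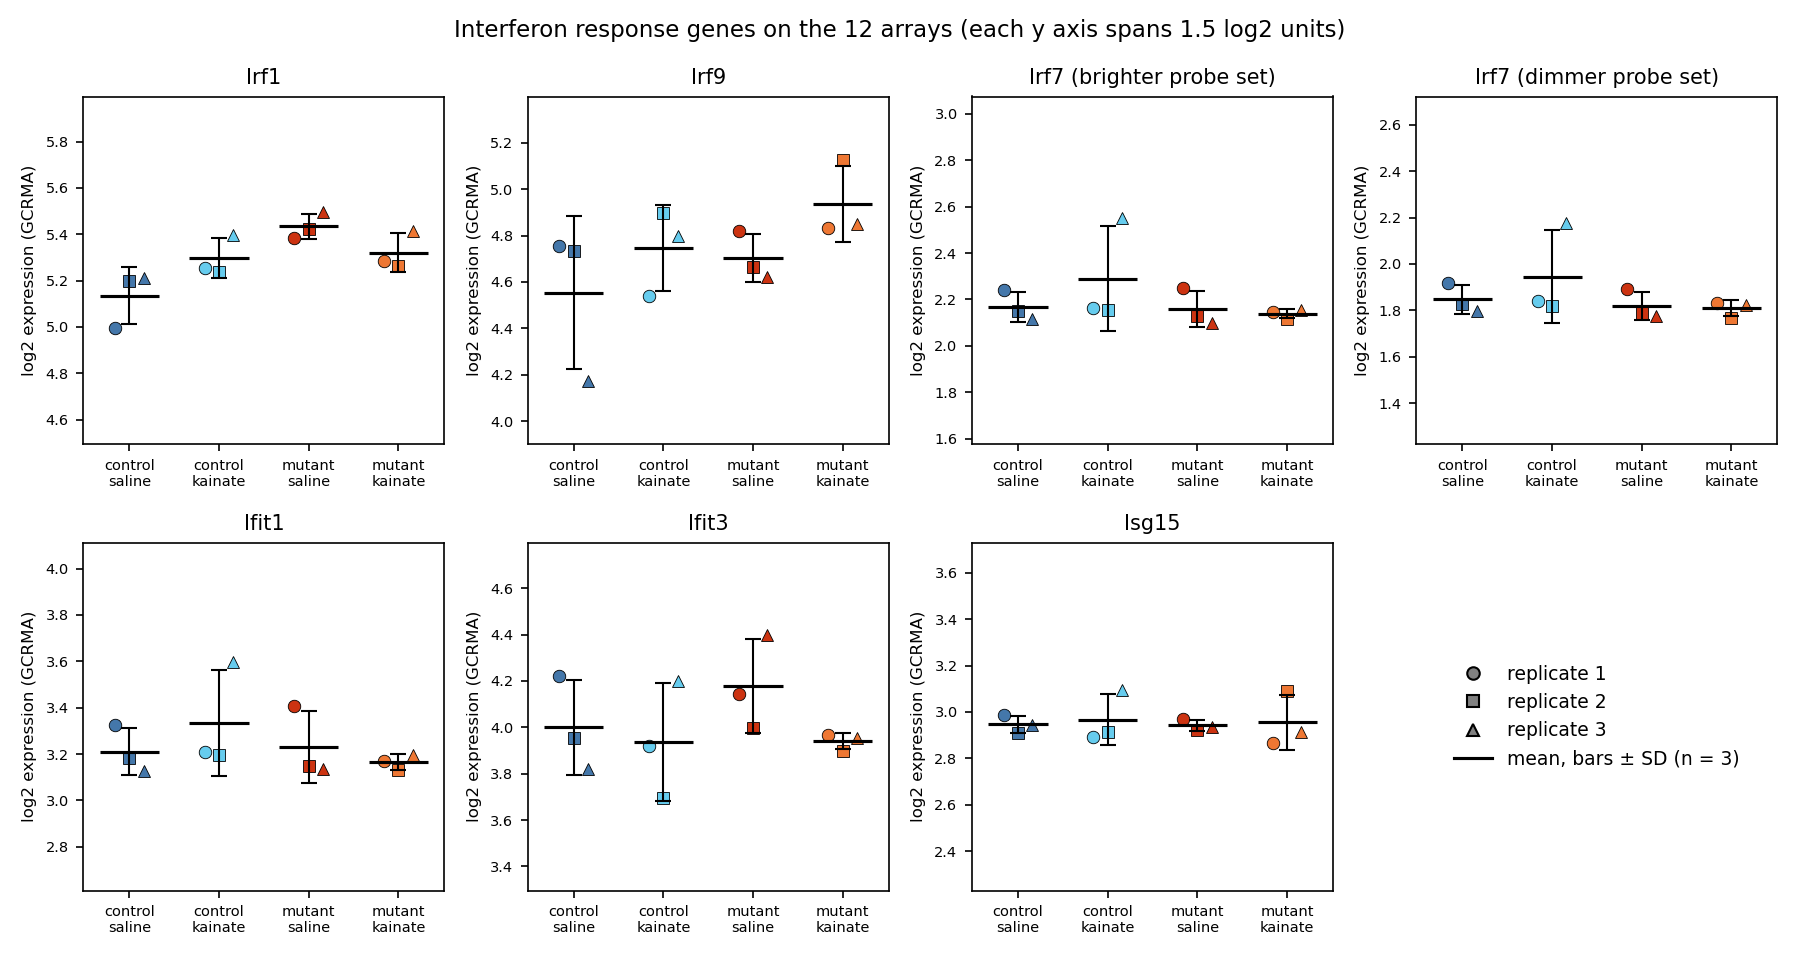
Log2 expression (GCRMA) of each member probe set on the 12 arrays by group, with marker shape giving the replicate number and bars the mean ± SD of 3 arrays; every y axis spans the same 1.5 log2 units. Irf1 is lowest in control saline, while the other panels show groups that overlap between genotypes and replicate 3 of control kainate on top for Irf7 and Ifit1.

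Replicate 3 of control kainate stood apart in the whole table and the members moved with it. On that array the dimmest 4140 probe sets were 0.33 higher in the median than on the other arrays of its group, with 97.2% of them above, and its interquartile range was 3.74 against 4.40 to 4.61 on the other 11. All 7 member probe sets were above the mean of the other control kainate arrays, by a median of 0.35, and 6 of them were the highest of the group. The probe sets of Ifit1, Isg15 and Irf7 are themselves among the dimmest 4140, so a shared shift is partly given by their level. Replicate 1 of control saline and of mutant saline showed smaller shifts of 0.14 and 0.12, with 6 and 5 members above. With that array left out, 0 of 7 members were called in each of the 6 comparisons, and their values moved. For kainate in controls the median over the member probe sets went from 0.12 to -0.01 (6 of 7 above 0, then 2 of 7). Over all probe sets that median likewise went from 0.05 to -0.03, and 63.5% were above 0 with every array kept. The member median went from -0.14 to -0.01 for the interaction and from -0.01 to 0.05 for the genotype difference under kainate.

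**Figure D2:**
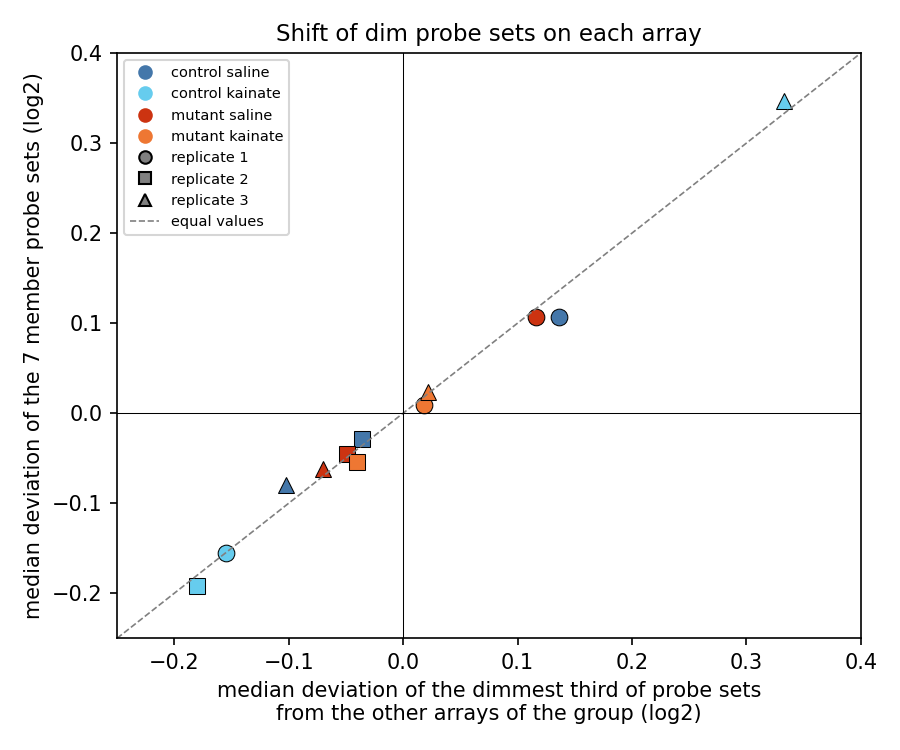
For each of the 12 arrays, the median log2 deviation of the dimmest 4140 probe sets from the other arrays of its group (x axis) against the same median over the 7 member probe sets (y axis); the dashed line marks equal values. The members lie close to the line on every array, with replicate 3 of control kainate farthest out at 0.33 and 0.35. The probe sets of Ifit1, Isg15 and Irf7 enter both medians.

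Kainate itself moved no member past the threshold at 1 h. In controls, where 0.33% of all probe sets were called, 0 of 7 members were, and their differences ran from -0.06 for Ifit3 to 0.19 for Irf9. Without replicate 3 of control kainate Ifit1 went from 0.12 to -0.01 there, while Ifit3 grew in size, from -0.06 to -0.19. The difference of Ifit1 thus rested on that array, and that of Ifit3 was made smaller by it. Irf1 did not pass either: its difference was 0.16 (SE 0.09), although all 3 control kainate arrays lay above the control saline arrays, as for 2.29% of all probe sets. In mutants, where 0.298% were called, 0 of 7 members were called and the differences ran from -0.24 for Ifit3 to 0.23 for Irf9. The mutant kainate arrays of Ifit3 lay below all mutant saline arrays, as for 7.39% of probe sets, and those of Irf9 lay above them, as for 4.98%. On the same arrays 9 of 9 measured immediate early genes, which neuronal activity induces (Fos, Fosb, Junb, Egr1, Egr2, Nr4a1, Ier2, Btg2 and Dusp1), rose with kainate in both genotypes, with median log2 differences of 4.75 and 4.64.

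Within each treatment the genotype difference of the members was likewise not called. Under saline 0 of 7 members were called against 0.137% of all probe sets, and under kainate 0 of 7 against 0.354%. Under kainate the members ran from -0.17 for Ifit1 to 0.19 for Irf9; without replicate 3 of control kainate these were -0.04 and 0.22, and Ifit3 went from 0.00 to 0.13. For the interaction, the difference between the kainate responses of the genotypes, 0 of 7 members and 0 of all 12422 probe sets passed the threshold in limma, while 107 of all probe sets had an unadjusted p under 0.05. Irf1 was 1 of those 107, with an interaction of -0.27 (SE 0.12, unadjusted p 0.0488, adjusted p 0.939 in limma). The median over the member probe sets was -0.01 for the averaged genotype difference, beside -0.06 over all probe sets, and 0.02 without replicate 3 of control kainate.

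The 5 genes whose centred log2 values over the 12 arrays lay closest to those of Irf1, by root mean square difference, were Mrpl16 at 0.08, Sparcl1, Mrpl28, Mrpl46 and Enah, the last at 0.09. Irf1's own root mean square deviation about its mean was 0.13, so such closeness is easily reached by a probe set that varies little. None of the 5 is in the interferon lists described next, and their averaged genotype differences were 0.05 to 0.16.

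The rest of the pathway was read from lists of genes by role. Of the interferon ligands, receptors and JAK-STAT components, 21 of 24 listed genes were measured and 0 rose or fell with genotype; the median difference was -0.05, beside -0.04 over all genes. Ifnar2, a chain of the type I receptor, differed by 0.20 (SE 0.09) and 0.14 (SE 0.08) on its 2 probe sets, both with an adjusted p of 0.630 in limma. Of the nucleic acid sensors and their adaptors 6 of 16 were measured and 0 passed, with a median of -0.05; the dimmer Irf3 probe set stood at -0.09 (SE 0.08) and the kinase Ikbke at -0.06 (SE 0.06). Of the other IRF and STAT factors 9 of 12 were measured and 0 passed, with a median of 0.01. Irf8, the factor that microglia and macrophages need for their identity, had the smallest p there, at 0.56 (SE 0.17, adjusted p 0.336 in limma). The probe sets of Stat3, which responds to interleukin-6 type cytokines, differed from each other, at 0.60 (SE 0.32) for a dimmer and 0.04 (SE 0.08) for the brightest, and neither passed.

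Of the other type I interferon-stimulated genes, 28 of 50 were measured and 1 rose in mutants: Lgals3bp, a secreted glycoprotein that binds galectin-3. Lgals3bp read 3.22, 3.49 and 2.97 in control saline, 3.48, 3.45 and 3.24 in control kainate, 3.55, 3.57 and 3.47 in mutant saline, and 4.05, 4.06 and 4.15 in mutant kainate. The mutant kainate arrays were the highest 3 of the 12, and the saline groups overlapped. Lgals3bp was higher by 0.50 (SE 0.09, adjusted p 0.0310 in limma) on average and by 0.69 (SE 0.12, adjusted p 0.0480) under kainate. The averaged call held in 7 of 19 alternatives, over which its adjusted p ran from 0.0130 to 0.270: it was lost under both other scalings, with replicates 2 and 3 alone, and without any 1 of the 6 mutant arrays, control saline replicates 1 or 3, or control kainate replicate 2. The call under kainate held in 5 of 19 and was lost without control kainate replicate 3.

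The other 27 genes of that list did not pass, and its median was -0.08, or -0.01 without replicate 3 of control kainate. They included Mx1, an antiviral GTPase, at -0.11 (SE 0.10), Usp18, the protease that removes Isg15, at -0.09 (SE 0.07), and Ifit2 at 0.07 (SE 0.11). Ifitm3, a membrane protein that blocks viral entry, differed by 0.39 (SE 0.18, adjusted p 0.630 in limma), and Ifi27, a mitochondrial protein induced by interferon, by 0.33 (SE 0.10, adjusted p 0.348). The brightest genes weigh most in a sum on the linear scale. Such sums of the list read 1070 to 1080 in control saline and 1180 to 1220 in mutant saline. They read 818 to 944 in control kainate and 1020 to 1060 in mutant kainate, and the genotypes did not overlap within a treatment. How often sums over other gene sets separate this way was not computed. In both control groups 23 of the 28 genes lay below the mean of all probe sets, and 9 of the 28 had averaged genotype differences above 0. Of all probe sets, 33.8% were above 0 in that comparison. Of the interferon-gamma-inducible GTPases and chemokines 13 of 18 were measured and 0 passed, with a median of -0.08, or 0.00 without replicate 3 of control kainate. The chemokine Cxcl10 stood at -0.12 and the guanylate-binding proteins Gbp3 and Gbp2 at 0.31 (SE 0.13) and 0.16 (SE 0.07), both with an adjusted p of 0.630 in limma.

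**Figure D3:**
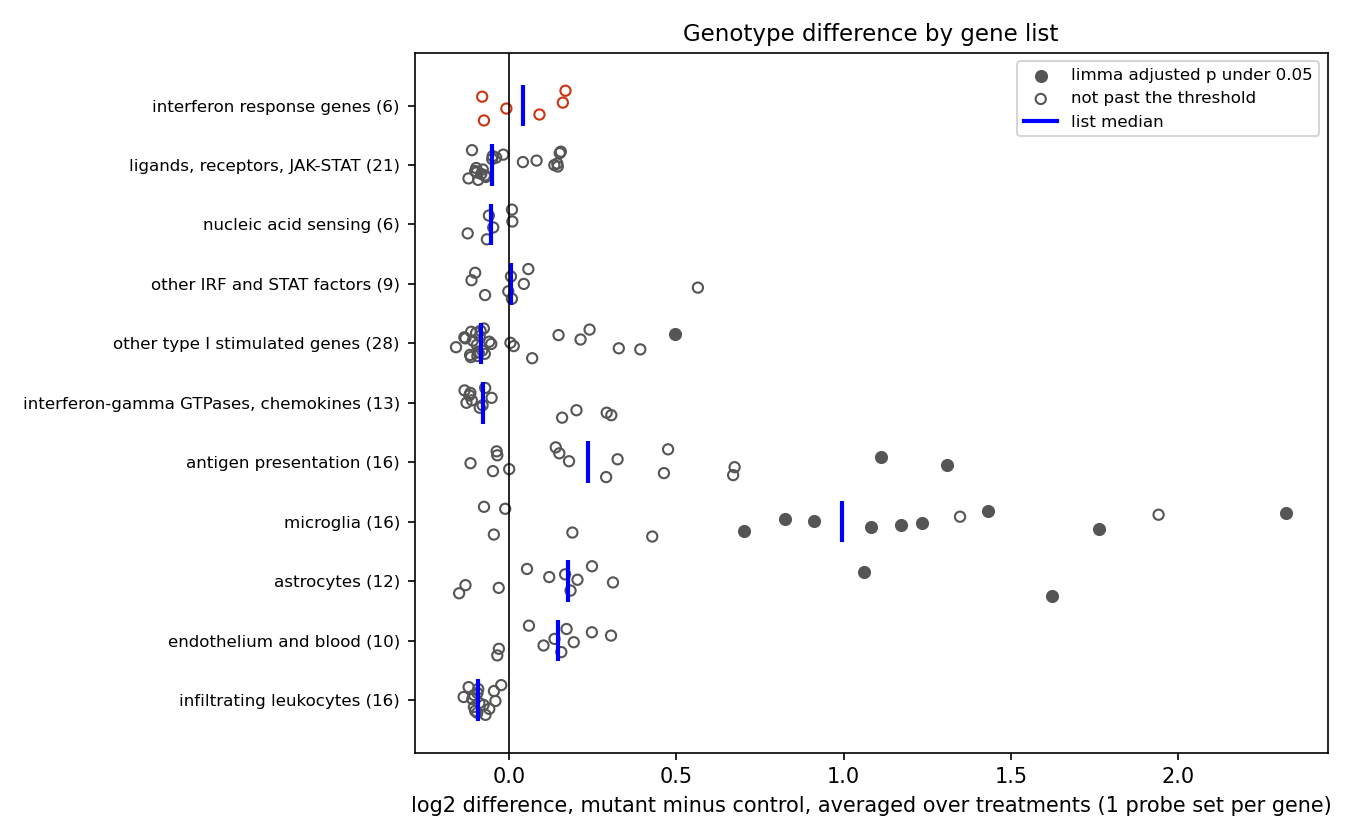
Log2 genotype difference averaged over treatments (x axis, mutant minus control) for each measured gene of the lists named on the y axis, with the number of genes in brackets, filled points past an adjusted p of 0.05 and blue bars at the list medians. The 6 members lie between -0.08 and 0.17, and the filled points are Lgals3bp at 0.50 and genes of antigen presentation, microglia and astrocytes at 0.70 or more.

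Antigen presentation genes, which interferon gamma can induce and which microglia also express, held 2 called genes. Of 16 measured genes of 21, 2 rose in mutants and 0 fell, with a median of 0.24. Psmb8, a catalytic subunit of the immunoproteasome, read 4.30, 4.59 and 4.50 in control saline, 4.56, 4.48 and 4.28 in control kainate, 5.76, 5.99 and 5.69 in mutant saline, and 5.56, 5.46 and 6.11 in mutant kainate. Every mutant array lay above every control array, as for 0.733% of all probe sets. Psmb8 was higher by 1.31 (SE 0.12, adjusted p 0.000646 in limma), and the call held in 20 of 20 alternatives.

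Cd74, the invariant chain of MHC class II, read 5.02, 4.66 and 5.04 in control saline, 5.27, 5.10 and 4.33 in control kainate, 6.05, 5.65 and 5.30 in mutant saline, and 6.42, 6.14 and 6.51 in mutant kainate. All mutant arrays lay above all control arrays. It was higher by 1.11 (SE 0.18, adjusted p 0.0200 in limma), a call that held in 12 of 20 alternatives, with adjusted p from 0.00117 to 0.119. It was lost under both other scalings, with replicates 2 and 3 alone, and without control saline replicates 2 or 3, mutant saline replicate 2, or mutant kainate replicates 1 or 3. Genes that act beside Psmb8 in the immunoproteasome and in peptide transport did not pass: Psmb9 stood at -0.11 (SE 0.10) and Tap1 at -0.05 (SE 0.05). Both were dim, at the 18.9 and 14.3 percentiles of mean level. Others had values above 0 without passing: the peptide-loading factor Tapbp at 0.67 (SE 0.15, adjusted p 0.108), Psme1 at 0.32 and Psmb10 at 0.18. In the averaged comparison 12 of the 16 genes were above 0, beside 33.8% of all probe sets. The class I heavy chain H2-K1 stood at 0.67 (adjusted p 0.0919), H2-D1 at 0.46 (adjusted p 0.141) and B2m, their light chain, at 0.29 (adjusted p 0.630).

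Of 16 measured microglial genes 9 rose in mutants, with a list median of 1.00, and the count was 9 without replicate 3 of control kainate. The largest of the 9 called were Cd52 at 2.32 and Tyrobp, the signalling adaptor of microglial receptors, at 1.76. Mpeg1, a pore-forming protein of phagocytes, followed at 1.43. The complement subunits C1qc, C1qb and C1qa stood at 1.24, 1.17 and 1.08, and Ctss, Laptm5 and Csf1r at 0.91, 0.82 and 0.70. Tyrobp read 6.05 to 6.13 in control saline, 6.13 to 6.27 in control kainate, 7.66 to 7.97 in mutant saline and 7.76 to 8.48 in mutant kainate, so the genotypes did not overlap. Of 12 measured astrocyte genes 2 rose and 10 did not pass, with a list median of 0.18: the filament protein Gfap at 1.62 (SE 0.21) and the cytokine receptor Osmr at 1.06 (SE 0.19); without replicate 3 of control kainate the count was 1. The Osmr call held in 6 of 20 alternatives, with adjusted p from 0.00195 to 0.306, and was lost under both other scalings and without any 1 of the 12 arrays other than mutant kainate replicate 2.

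Summed on the linear scale over its 16 genes, the microglial signal was 2770 to 3050 in control saline, 3190 to 3520 in control kainate, 5300 to 6370 in mutant saline and 6560 to 7880 in mutant kainate. The sum over the 6 members was 90.0 to 100, 97.7 to 115, 105 to 111 and 104 to 110 in the same order, and overlapped between genotypes under kainate. Under saline every mutant sum lay above every control sum, as the arrays did for 3.85% of single probe sets. How often sums over other gene sets separate this way was not computed. Irf1, Irf9 and Ifit3 were the brightest members in the sum, and Irf9 and Ifit3 each overlapped between the saline groups. How much of the separation goes with the microglial signal was not tested. Genes of infiltrating leukocytes, of which 16 of 21 were measured, showed 0 calls and a median of -0.09, or -0.02 without replicate 3 of control kainate. Their mean levels lay between the 4.40 and 52.1 percentiles of all probe sets, with Cd79a, a B cell marker, at the 13.4 and Cd8a, a T cell marker, at the 32.4, and their summed signals were 163 to 188, 163 to 242, 167 to 187 and 161 to 168 in the same order. Endothelial and blood genes showed 0 of 10, with Cldn5 at 0.31 and Vwf at 0.25. As a description of the tissue, Calb1 and Wfs1, which mark granule and CA1 pyramidal cells in hippocampus, were read at the 91.9 and 89.9 percentiles of mean level; levels of different probe sets are not strictly comparable. Of 9 measured neuronal genes 1 fell in mutants, Wfs1 at -1.04 (SE 0.14, adjusted p 0.00820 in limma).

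**Figure D4:**
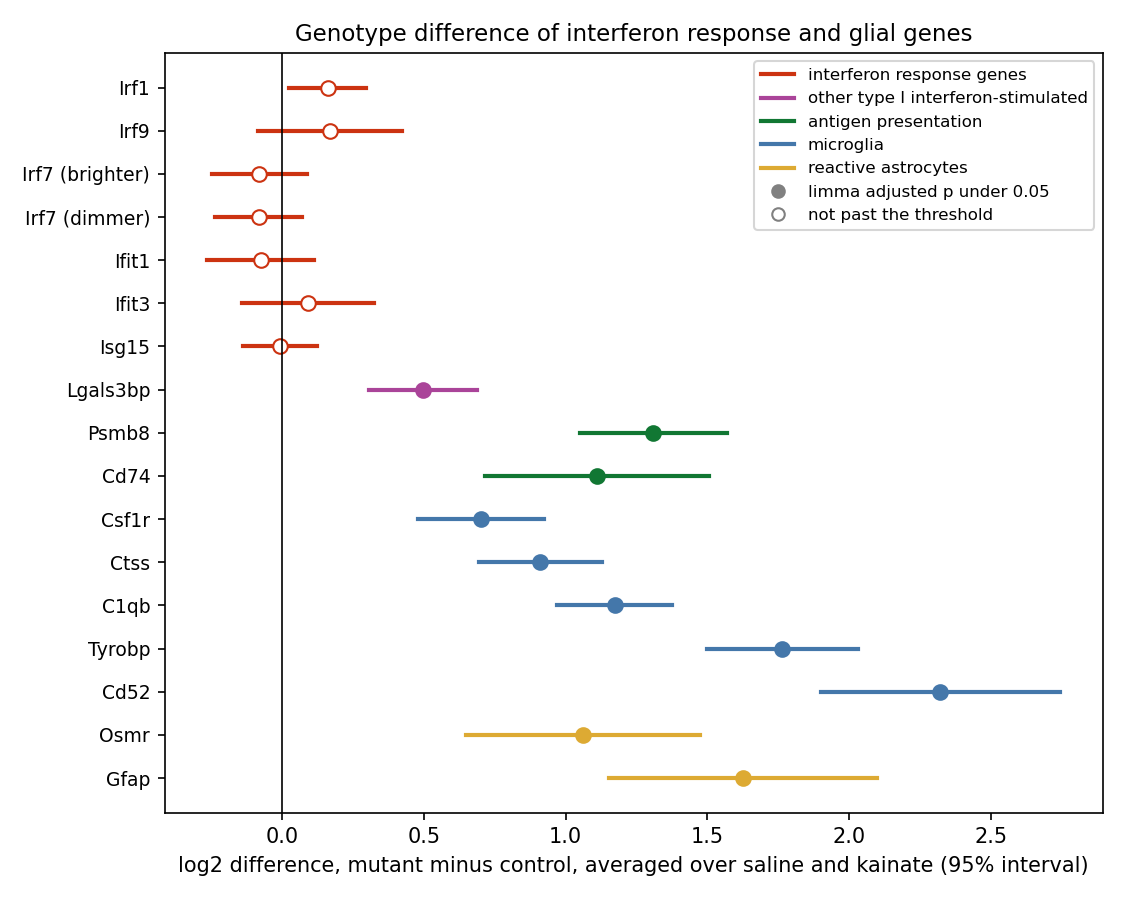
Log2 genotype difference averaged over treatments (x axis, mutant minus control) with 95% intervals for the members and for selected called genes of the glial, antigen presentation and other interferon-stimulated lists; filled points are past an adjusted p of 0.05. The member intervals end at or below 0.42, and the lowest lower bound of the microglial genes shown, all of which had passed the test, is 0.48. Within each treatment the interval of Csf1r, which was not called there, overlapped those of members.

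The ISRE letters were then set against the genotype difference across the array. Of 256 measured genes with an ISRE match in a promoter window, 1 rose in mutants and 0 fell, or 0.391%; that gene was Ctss, a lysosomal protease of microglia, at 0.91 (SE 0.10). Of 6320 genes whose windows held no match 33 rose and 15 fell, or 0.759%. The median differences were -0.06 and -0.03. The order of the shares turned within treatments, at 0.391% with a match against 0.127% without under saline and 0.781% against 0.411% under kainate, so no direction can be read from counts of 1 or 2 genes. For GAS the averaged shares were 0.894% of 559 genes with a match and 0.731% of 6017 without.

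As a check of the labels, Creb1 was read by 3 probe sets with averaged genotype differences of -0.09, -0.12 and -0.11 (adjusted p 0.630 each in limma), and Crem by 2, at -0.29 (SE 0.07, adjusted p 0.141) and -0.25 (adjusted p 0.286). Neither gene passed the threshold, and the positions of the probes against the altered regions are not given in the sources used here, so these values leave the genotype labels unchecked.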

How the data were processed

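The deposited table held log2 expression values that the authors made with GCRMA in R 2.4.1, per the submitters' processing notes; it ran from -0.78 to 14.35, and between arrays correlations were 0.973 to 0.998. GCRMA subtracts background by probe sequence and normalises quantiles, which can compress differences of dim probe sets such as those of Irf7. Of 12488 probe sets 66 controls were left out. Groups came from the sample titles. The members and lists were chosen with earlier results of these data known.

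The fit used limma 3.58.1 (R 4.3.3) with a mean for each group over all 12 arrays (8 residual and 2.48 prior degrees of freedom), two-sided, adjusted by Benjamini-Hochberg over all 12422 probe sets, threshold 0.05. The procedure was tested on simulated data. Where 1 value per gene was needed, the probe set with the highest mean stood for it.

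Every member probe set is named. Of the other lists, genes past the threshold are named, up to 10 a list by adjusted p, or else the 2 with the smallest p; some further genes (Mx1, Usp18, Ifit2, Ifitm3, Ifi27, Cxcl10, Tap1, Tapbp, Psme1, Psmb9, Psmb10, H2-K1, H2-D1, B2m, Calb1, Itgam, Fcer1g, Fcgr3) were named after their values were seen. The 5 genes most like the member with the smallest p, and Creb1 and Crem, are also named.

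Promoter windows and positions are from RefSeq, GRCm38.p6. Alternatives were quantile normalisation, centring, a filter on level, averaging probe sets, the replicate number as a block, replicate 1 as a batch, replicates 2 and 3 alone, array weights, and leaving out each array. Arrays give no counts, and their number limits the precision.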

Additional observations from a re-analysis of the deposited data

How the results depend on the processing

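Of 804 member values over 20 alternatives in each of 6 comparisons, 2 passed the threshold, both for Irf1 with limma array weights: 1 member averaged over treatments and 1 under saline. The weights were fitted gene by gene because the joint estimate did not converge, and control kainate replicate 3 had a weight of 0.0321. With each array left out in turn 0 members passed in any comparison (lowest 0, highest 0).

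Counts over all probe sets moved more. For the averaged genotype difference, 76 were called; array weights gave 478, replicates 2 and 3 alone 47, replicate 1 as a batch 140, and leaving out 1 array 41 to 103. Under saline 17 were called, then 680, 2 and 38, and 8 to 20. Under kainate 44 were called, then 99, 10 and 77, and 12 to 38, with 20 after centring. For kainate in controls 41 were called, then 380 with weights and 146 with replicates 2 and 3, and 27 to 56; for kainate in mutants 37, then 1619, 94 and 64 with the batch, and 26 to 51. For the interaction weights gave 8, and leaving out 1 array gave 0 to 5, the 5 without control kainate replicate 3. Where arrays were left out, counts moved in both directions. The cause was not tested.

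The replicate number as a block gave 124 calls averaged, 30 under saline and 67 under kainate, with 0 members. Deviations of same-numbered arrays correlated from -0.01 to 0.85, the pairs under 0.1 both holding control kainate replicate 3; control and mutant pairs within a treatment ranged from 0.315 to 0.848. Those of different-numbered arrays correlated from -0.72 to 0.57. As the labels do not say what the numbers mark and not every pair passed 0.1, the fit without the block was kept. Its p-values take no account of what same-numbered arrays share. Levels near the array floor limit what could be seen for Irf7, Isg15 and Ifit1. Ifit3, at the 46.3 percentile of mean level, also lay within the range of the infiltrating leukocyte genes.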
